A study of Mus musculus with 3 samples.

Results

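H3K9ac summits of haematopoietic stem cells (HSCs) labelled as old with the tag ABC were compared with those of HSCs labelled young, using 1 library from each group, 2 of the 3 libraries in the series. H3K9ac, acetylation of lysine 9 on histone H3, was profiled by CUT&Tag, in which an antibody leads a transposase to the mark and the DNA around it is tagged and sequenced. The mice were wild type, 2 to 4 months old in the young and 18 to 24 months old in the old groups, and each assay took 50000 HSCs sorted from bone marrow. Age was read from the first letter of each title, y or o, and the labels do not spell out ABC. Nothing in the labels gives the surface markers of the sort, the number of mice pooled or any treatment behind ABC. Each library is a list of 1 bp summits in mm10 with a score from the authors' peak calling. The young-labelled list held 33248 summits and the ABC-labelled list 45386, so the 33248 highest-scoring summits of each were compared. This left out 12138 ABC summits, with scores up to 2.84. A rank below is the place of a summit in its own list, 1 being the highest score.

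Peak names carry a sample name, and it disagreed with the label in each list. In the young-labelled list it read oHSC-H3K9ac-1 and in the ABC-labelled list oHSC-H3K9ac-2, so by those names both lists would be old HSC. The third list, labelled old HSC without ABC, carried oHSC-ABC-H3K9ac-1. The files do not show whether labels or peak names are right. Libraries are called by their label throughout, and each direction given is that of the labels. With 1 library in each group there was no replicate check and no test was run. Values in brackets after a share are its exact 95% Clopper-Pearson interval, which covers counting error only. Read depth was unknown.

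H3K9ac is placed by acetyltransferases such as Kat2a and Kat2b and removed by histone deacetylases and sirtuins. It is found mostly at the starts of active genes and, at lower levels, at active enhancers. HSCs keep their identity through a set of transcription factors, among them Runx1, Gata2, Tal1 and Meis1, many of which are regulated by enhancers far from the gene. With age HSCs grow in number, shift towards myeloid and platelet output and change their chromatin. Protein-coding gene records came from RefSeq (GRCm38.p6); a summit at most 1 kb from the start or end of such a record is called a gene-end summit, and a gene with one is called marked. A gene called unmarked can still hold summits inside its record. A summit over 10 kb from every such end is called distal. A summit is shared if the other list has one within 500 bp, and otherwise belongs to 1 list only.

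The promoters of 8 genes that differed between the lists are shown first, because most gene-end summits lay within 1 kb of a listed gene start. They are the first 2 genes of each kind and direction below, leaving out genes without a complete promoter sequence and those whose best summits were not at the same site. Each runs from 250 bases before to 50 after a start given in the RefSeq promoter table (GRCm38.p6), 5′ to 3′ on the strand of the gene. That start is the end of the gene record used for marking, except in Gucy1a1 and Zfand5, where it lies 296 and 492 bp away from it. Capitals mark short motifs on either strand: the GC box GGGCGG, the CCAAT box, the ETS core CCGGAAG, the cyclic AMP response element (CRE) TGACGTCA, the AP-1 site TGAGTCA, the TATA box TATAAA and the GATA site GATAAG. Of all 17486 genes with such a sequence, 46.3% held the GC box, 39.2% CCAAT, 11.9% the ETS core, 2.33% the CRE, 4.56% the AP-1 site, 13.3% the TATA box and 6.89% the GATA site. A match is a description of the letters and no evidence of binding. Smim13 (chr13:41249594-41249893, plus strand) and Rtl8b (chrX:53670388-53670687, minus strand) had an ABC end summit and no young summit within 5 kb of an end or in the record.
Smim13: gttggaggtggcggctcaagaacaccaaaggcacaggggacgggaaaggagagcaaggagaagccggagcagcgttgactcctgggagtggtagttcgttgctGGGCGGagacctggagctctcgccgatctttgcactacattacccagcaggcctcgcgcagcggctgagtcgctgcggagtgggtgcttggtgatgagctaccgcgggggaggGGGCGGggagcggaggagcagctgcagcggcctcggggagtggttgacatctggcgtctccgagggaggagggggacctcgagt
Rtl8b: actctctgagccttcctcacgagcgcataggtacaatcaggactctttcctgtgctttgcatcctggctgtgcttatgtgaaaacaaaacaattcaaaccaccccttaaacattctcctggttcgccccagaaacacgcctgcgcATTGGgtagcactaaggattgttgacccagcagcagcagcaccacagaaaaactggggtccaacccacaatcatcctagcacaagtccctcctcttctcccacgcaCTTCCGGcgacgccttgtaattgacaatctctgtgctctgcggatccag
The ABC summits lay 108 bp before the start of Smim13, at rank 3720, and 35 bp after that of Rtl8b, at rank 5024. The Smim13 sequence held 2 GC boxes, and the Rtl8b sequence 1 CCAAT box and 1 ETS core.

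Tfip11 (chr5:112326119-112326418, plus strand), whose protein takes part in the disassembly of the spliceosome, and Creld1 (chr6:113483106-113483405, plus strand) are the same kind of gene in the other direction, with a young end summit and no ABC summit within 5 kb of an end or in the record.
Tfip11: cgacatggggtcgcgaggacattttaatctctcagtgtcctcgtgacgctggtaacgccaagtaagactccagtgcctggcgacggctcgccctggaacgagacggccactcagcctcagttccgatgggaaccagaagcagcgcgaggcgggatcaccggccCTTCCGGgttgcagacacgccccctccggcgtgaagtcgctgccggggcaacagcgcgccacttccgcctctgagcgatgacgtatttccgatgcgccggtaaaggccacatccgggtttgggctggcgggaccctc
Creld1: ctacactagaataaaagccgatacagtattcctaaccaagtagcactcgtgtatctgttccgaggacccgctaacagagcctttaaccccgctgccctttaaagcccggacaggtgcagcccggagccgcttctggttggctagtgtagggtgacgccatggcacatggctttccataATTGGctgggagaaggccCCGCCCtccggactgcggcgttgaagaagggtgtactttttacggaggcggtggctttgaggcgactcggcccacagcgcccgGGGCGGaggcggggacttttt
The young summits lay 235 bp after the start of Tfip11, at rank 3741, and 135 bp before that of Creld1, at rank 4201. The sequences held 1 ETS core and, for Creld1, 1 CCAAT box and 2 GC boxes.

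Gucy1a1 (chr3:82145601-82145900, minus strand), a subunit of the guanylate cyclase that senses nitric oxide, and Zfand5 (chr19:21272028-21272327, plus strand), a zinc finger protein that acts on the proteasome, were marked in both lists at very different ranks, higher in ABC.
Gucy1a1: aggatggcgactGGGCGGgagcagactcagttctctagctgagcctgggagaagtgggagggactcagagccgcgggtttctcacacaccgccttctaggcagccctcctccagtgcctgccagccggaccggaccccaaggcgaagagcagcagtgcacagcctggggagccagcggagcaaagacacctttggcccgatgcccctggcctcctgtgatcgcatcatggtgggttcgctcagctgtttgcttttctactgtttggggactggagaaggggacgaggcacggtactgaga
Zfand5: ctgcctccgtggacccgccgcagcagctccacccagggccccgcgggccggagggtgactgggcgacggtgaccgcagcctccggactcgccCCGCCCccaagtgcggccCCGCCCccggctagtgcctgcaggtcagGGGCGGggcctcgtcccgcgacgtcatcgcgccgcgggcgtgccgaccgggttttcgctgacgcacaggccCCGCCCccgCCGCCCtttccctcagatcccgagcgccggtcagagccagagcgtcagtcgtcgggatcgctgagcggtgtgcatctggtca
Gucy1a1 ranked 4858 in ABC against 30867 in young, and Zfand5 2992 against 26990. Rcl1 (chr19:29101125-29101424, plus strand), which takes part in the processing of 18S ribosomal RNA, and Lman2l (chr1:36445222-36445521, minus strand), a lectin of the secretory pathway, ranked higher in young.
Rcl1: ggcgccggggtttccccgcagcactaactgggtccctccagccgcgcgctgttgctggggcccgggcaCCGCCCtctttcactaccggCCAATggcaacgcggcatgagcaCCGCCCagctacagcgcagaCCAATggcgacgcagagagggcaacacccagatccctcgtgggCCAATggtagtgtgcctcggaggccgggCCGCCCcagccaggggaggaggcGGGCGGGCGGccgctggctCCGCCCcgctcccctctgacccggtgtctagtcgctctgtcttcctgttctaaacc
Lman2l: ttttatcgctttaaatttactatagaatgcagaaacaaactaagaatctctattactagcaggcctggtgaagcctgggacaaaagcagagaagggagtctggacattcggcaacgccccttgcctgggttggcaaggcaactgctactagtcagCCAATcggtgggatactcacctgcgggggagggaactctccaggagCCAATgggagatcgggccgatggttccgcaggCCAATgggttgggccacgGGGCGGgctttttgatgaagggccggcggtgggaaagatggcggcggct
Rcl1 ranked 1776 in young against 32804 in ABC, and Lman2l 4685 against 32918. These promoters differed widely in base content, from 75.3% GC with 40 CpG in Zfand5 and 70.0% GC with 27 CpG in Rcl1 to 55.3% GC with 14 CpG in Lman2l and 51.7% GC with 10 CpG in Rtl8b. None of the 8 held the TATA box or the GATA site.

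Both lists were made up in much the same way. Gene-end summits were 9434 of the young list (28.4%) and 9052 of the ABC list (27.2%). Distal summits were 14516 of the young list (43.7%) and 15111 of the ABC list (45.4%). The rest lay between 1 and 10 kb from a gene end, apart from 37 young and 41 ABC summits on other sequences of the assembly or on the mitochondrial genome. Inside a gene record lay 63.1% of young and 63.3% of ABC distal summits, and their median distance to the nearest gene end was 29.9 and 30.3 kb. The top of the ABC list was the more distal of the pair: of its top 10% of summits, 66.6% were gene-end and 15.7% distal summits, against 70.3% and 11.4% in young.

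Gene-end summits were shared far more often than distal ones. Of the ABC gene-end summits 78.4% (77.6 to 79.3) had a young summit within 500 bp, and of the ABC distal summits 40.1% (39.4 to 40.9). In the other direction 75.1% (74.2 to 75.9) of young gene-end and 41.9% (41.1 to 42.7) of young distal summits had an ABC partner. Shared summits lay close together, with a median offset of 64 bp at gene ends and 90 bp at distal sites, seen from the ABC list. Distal summits outside gene records were shared a little more often, at 42.5% in ABC and 44.1% in young, than those inside, at 38.8% and 40.7%.

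Sharing followed rank closely in both classes. In the top 10% of each list 95.3% of ABC and 95.5% of young gene-end summits were shared, and so were 93.9% and 96.6% of distal ones. In the last 10% the shares were 43.6% and 24.1% at gene ends and 22.0% and 18.0% at distal sites. Distal summits sat lower in the lists, with a median rank of 20072 in ABC and 20680 in young, against 8056.5 and 7536 at gene ends. When distal summits were weighted to the ranks of the gene-end summits, 63.7% of ABC and 71.2% of young ones were shared. The gap between the classes then shrank from 38.3 to 14.8 percentage points in ABC and from 33.1 to 3.84 in young. Ranks of shared pairs went together more tightly at gene ends (Spearman 0.76 over 7101 pairs) than at distal sites (0.52 over 6066 pairs), given as descriptions of pairs within 1 library each.

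**Figure D1:**
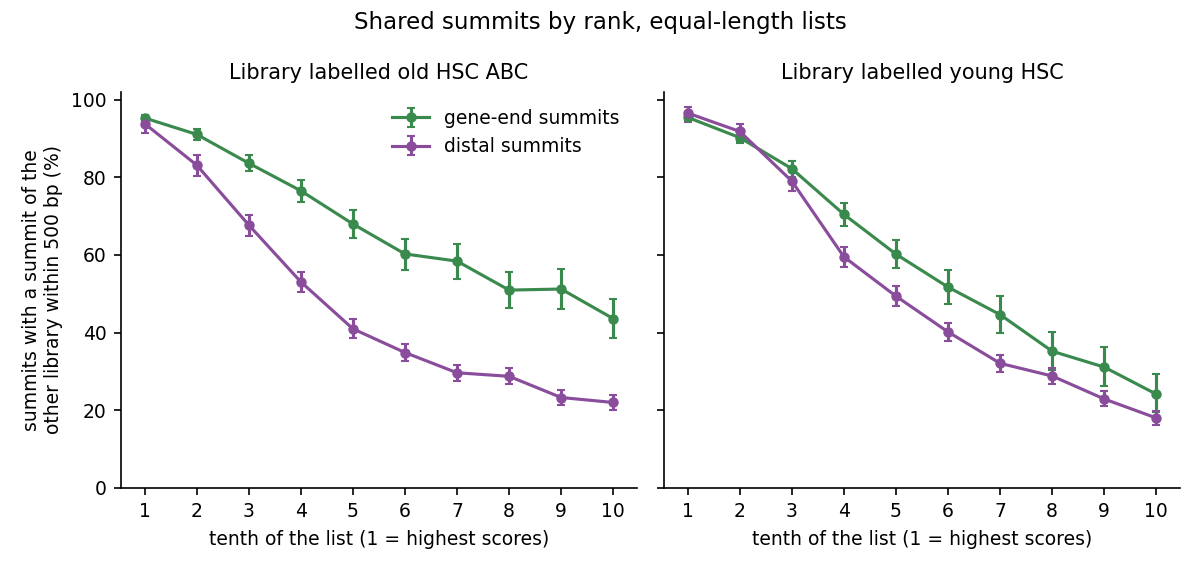
Percent of summits with a summit of the other library within 500 bp (y axis), in 10 bins of rank from the highest scores (1) to the lowest (10), for gene-end (green) and distal (purple) summits of the ABC-labelled and young-labelled libraries; bars are exact 95% intervals for counting error. All 4 lines start between 93.9% and 96.6% and fall to between 18.0% and 43.6%, and the lines lie further apart in the ABC panel than in the young panel.

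Summits of 1 list only were looked up in the third list. The 33248 highest summits of the old-labelled library held 44.1% (41.9 to 46.4) of the ABC-only and 48.9% (46.9 to 51.0) of the young-only gene-end summits. For distal summits of 1 list only the shares were 28.3% (27.3 to 29.2) in ABC and 24.8% (23.8 to 25.7) in young. Shared summits were found there far more often, at 88.6% and 88.9% at gene ends and 72.8% and 73.1% at distal sites. The young-only gene-end summits were thus held by the old-labelled list slightly more often than the ABC-only ones, and distal summits the other way round. In the whole old-labelled list of 108787 summits the shares rose to between 62.2% and 67.9% for all 4 sets. Left without a partner in either other deposited list were 2907 ABC and 2970 young distal summits.

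**Figure D2:**
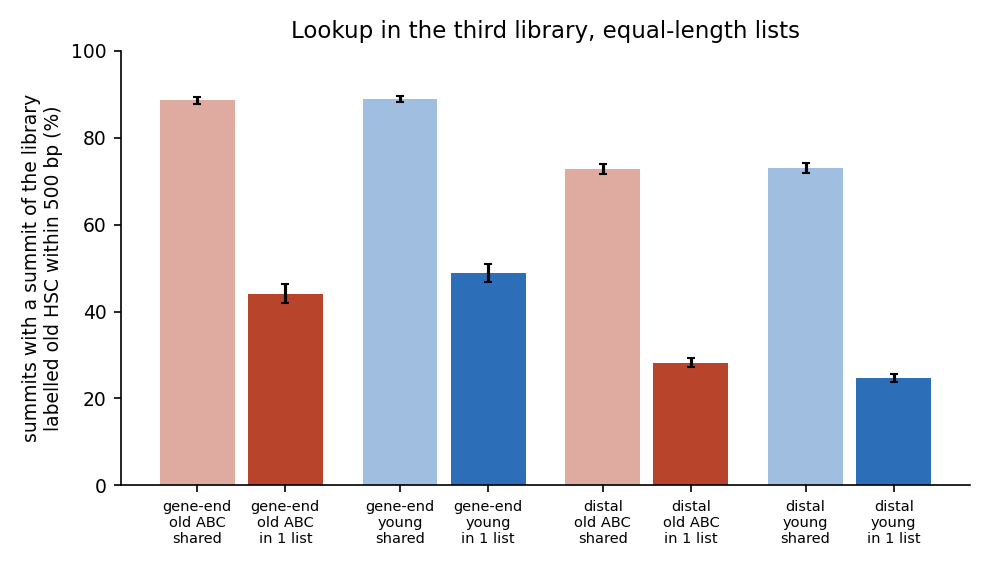
Percent of summits with a summit of the old-labelled library within 500 bp (y axis, equal-length lists), for gene-end and distal summits of the ABC-labelled (red) and young-labelled (blue) libraries, shared between those 2 (pale) or in 1 list only (dark); bars are exact 95% intervals for counting error. Shared summits reach 72.8% to 88.9% and summits of 1 list only 24.8% to 48.9%.

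Distal and gene-end summits of 1 list only also differed in what lay around them. Among the ABC-only gene-end summits 41.7% had a young summit within 1 kb, and among the young-only ones 35.9% an ABC summit. Of the distal ones 65.3% in ABC and 63.6% in young were over 10 kb from any summit of the other list. The ABC summits below rank 33248, left out of the equal-length list, held 13.8% of the young-only gene-end and 12.7% of the young-only distal summits. Distal summits of 1 list lay within 1 kb of an end of a long non-coding RNA gene in 3.06% (ABC) and 3.95% (young) of cases, and shared ones in 6.38% and 6.31%.

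Of all gene-end summits, 73.9% of ABC and 74.4% of young ones lay within 1 kb of a listed gene start. Summits at genes without a listed start were counted among the rest. The median position was 187 bp after the start in ABC and 207 bp in young, and about as many lay downstream in each, 72.2% and 72.8%. Summits of 1 list only were less often at a start, 58.8% in ABC and 63.8% in young. Those of ABC sat nearer to it, at a median of 94 bp after the start with 39.2% within 200 bp, than those of young, at 169 bp with 31.5%.

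**Figure D3:**
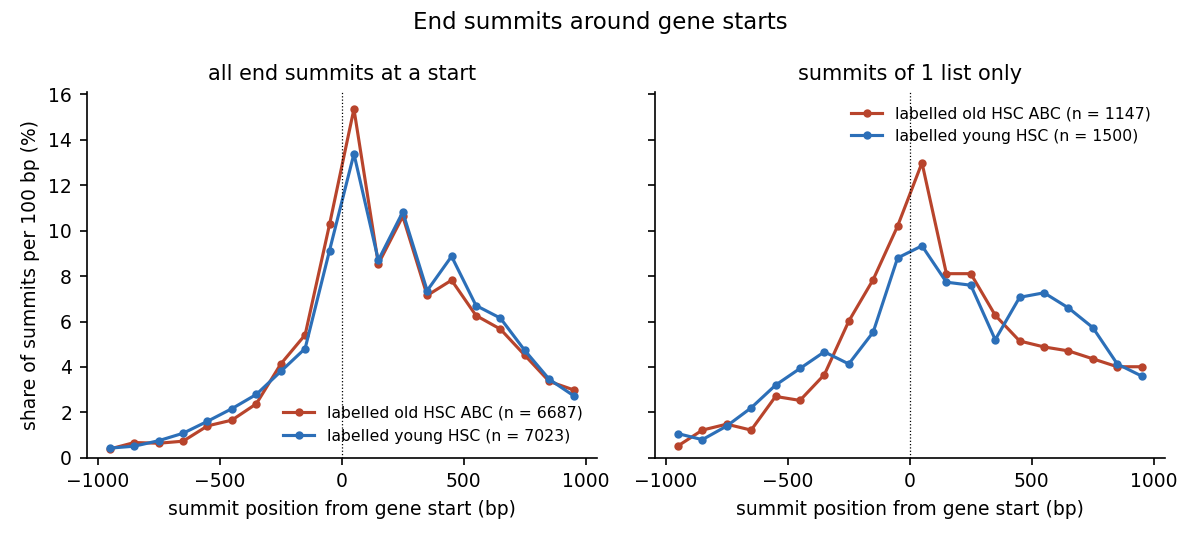
Position of end summits around gene starts in 100 bp bins (x axis, bp, positive downstream) as percent of the summits at a start (y axis), for the ABC-labelled (red) and young-labelled (blue) libraries; left, all of them (6687 and 7023), right, summits of 1 list only (1147 and 1500). Both libraries peak just after the start, and on the right the ABC summits are the more concentrated there.

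Of 21887 protein-coding genes, 8866 were marked in ABC (40.5%) and 9172 in young (41.9%). Both lists marked 7838 genes (35.8%), ABC alone 1028 (4.70%) and young alone 1334 (6.09%), so that 56.5% of the genes marked in 1 list were on the young side. That side depended on the length of the lists: young held 42.6% of such genes with the lists as deposited (1047 against 1408). When absence meant no summit within 5 kb of an end, young held 56.8% (659 against 501) with equal-length lists, but 46.2% (431 against 501) when the summit had to be missing from the whole deposited list. Of the young-only genes 287 (21.5%) had an ABC summit within 1 kb of an end among the ABC summits left out, and the young list had none left out. Many differences were small shifts across the 1 kb limit. Between the equal-length lists, 34.7% of the ABC-only genes had the nearest young summit between 1 and 2 kb from an end and 32.5% of the young-only genes the nearest ABC one, while 48.7% and 49.4% had none within 5 kb. When the marking summit also had to have no summit of the other deposited list within 2 kb, a rule that is stricter for young because the deposited ABC list is longer, 709 ABC-only (3.24%) and 737 young-only genes (3.37%) were left, called clear below. A stricter rule, no summit of the other deposited list within 5 kb of an end or in the record, left 369 (1.69%) and 279 (1.27%).

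Genes marked in 1 list were also compared with those marked in both and in neither. The old-labelled equal-length list marked 96.5% of the genes marked in both, 58.4% of the ABC-only, 66.6% of the young-only and 7.80% of the genes in neither. A promoter held a median of 21 CpG in genes marked in both, 20 in young-only, 15 in ABC-only and 5 in neither. At least 10 CpG were present in 85.9%, 71.9%, 65.3% and 35.0% of them. The ETS core, bound by factors such as Gabpa and Fli1, was in 22.1% of promoters marked in both, 13.1% of young-only, 10.1% of ABC-only and 4.88% in neither. The GC box followed the same order with 65.2%, 61.3%, 55.0% and 30.8%, the TATA box the opposite one with 6.51%, 8.20% and 9.85% in the marked groups and more in neither, and CCAAT was level at 39.0% to 39.7%. The CRE did not follow that order, with 3.79% in both, 2.45% in young-only, 0.998% in ABC-only and 1.42% in neither, and the median GC content was 60.3%, 60.7%, 59.0% and 50.7%. In CpG, the ETS core, the GC box and the TATA box, the values of ABC-only promoters lay nearer to those of genes in neither than the young-only values did.

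The genes with the highest ABC summit and no young summit within 5 kb of an end or in the record began with Asmt, the last enzyme of melatonin synthesis, on the X chromosome at rank 1141. Of the distal summits nearest to Asmt, ABC held 16 and young 12, with 10 shared and the best at ranks 18 and 22. No filter for regions that collect reads in any experiment was applied. After Smim13 and Rtl8b came Gcdh, a mitochondrial enzyme of lysine and tryptophan breakdown, at rank 5158. Fancb, a member of the Fanconi anaemia complex that repairs DNA crosslinks, and Mospd2 shared 1 summit at rank 5483 that lay 560522 bp from any young summit. Then came Gaa, the lysosomal enzyme that breaks down glycogen (5654), Pdp1, a phosphatase that activates pyruvate dehydrogenase (5674), Zfp114 (5862) and Lgals4, a galectin (5870). All 10 were also marked in the equal-length list of the old-labelled library. For Gaa its best end summit lay at the opposite end of the record from the ABC one. On the X chromosome lay 4 of the 10, Fancb and Mospd2 through the same summit, beside 3.40% of all ABC-only genes.

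On the young side, Tfip11 and Creld1 were followed by Polr2g, a subunit of RNA polymerase II, at rank 5008. Klf10, a transcription factor induced by TGF-beta, ranked 5490 with the nearest ABC summit 7618 bp away. Alg13, an enzyme at the start of N-glycan assembly on the X chromosome, ranked 5782, with 1351722 bp to the nearest ABC summit. Arl4d (7004), the NuRD subunit Mbd3 (7304), choline kinase Chka (7396), the small heat shock gene Hspb9 (7814) and Fam50a (7858) completed the 10. All 10 were marked in the old-labelled list. Alg13 and Fam50a lay on the X chromosome, beside 2.10% of all young-only genes. Genes absent from the other list were seldom at the top: 80 ABC-only and 88 young-only genes had a rank of 5000 or better, against 2850 genes with such a rank in both lists.

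Among the 7838 genes marked in both, ranks went together (Spearman 0.758, a description across genes, which are not replicates). The best summits of a gene lay within 500 bp of each other for 87.5% of them. The young list ranked 4506 of these genes higher and the ABC list 3329. The largest differences were read with the distance to the nearest summit of the other list, since 2 of the 10 ABC and 3 of the 10 young genes with the largest difference had a higher-ranked partner summit nearby. Dgcr8, a partner of Drosha in microRNA processing, ranked 2155 in ABC and 31382 in young, yet a young summit of rank 2060 lay 58 bp from the ABC one, just outside the 1 kb window. Emilin1, a protein of the extracellular matrix, ranked 211 in young and 27010 in ABC, with an ABC summit of rank 439 at 91 bp. At Gna11 a young summit of rank 4864 lay 415 bp from the ABC one, and at Mark3 an ABC summit of rank 2028 lay 306 bp from the young one. At Slc30a5 the young summit ranked 3598 and the nearest ABC one 9263, at 520 bp, so a difference in rank remained. For members of the gene lists below such distances are mostly not given, and part of their rank differences may be of this kind.

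The other 8 ABC genes differed at the same site. Crispld1 ranked 3096 in ABC and 30160 in young with summits 449 bp apart, and Chst11, a chondroitin sulfotransferase, 4402 and 25863 with summits 17 bp apart. Patj, a scaffold of cell polarity, ranked 3066 and 22852, Wwox, an oxidoreductase, 3843 and 21809, the kinesin Kif3c 4943 and 24790, and Mtx2, of mitochondrial protein import, 4334 and 22259. The old-labelled equal-length list had no end summit at Chst11. On the young side, Ctbp2, a transcriptional corepressor, ranked 4579 in young and 30644 in ABC with summits 3 bp apart. Lyz2, the lysozyme of myeloid cells, ranked 2667 and 27910, and Prkcb, a protein kinase C, 4600 and 29179. Abhd17a, which removes palmitate from proteins, ranked 3942 and 28113 at the same base. Mcrip1 ranked 3726 and 27873. These ranks take the best summit at either end of the record, so the sites need not be gene starts.

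**Figure D4:**
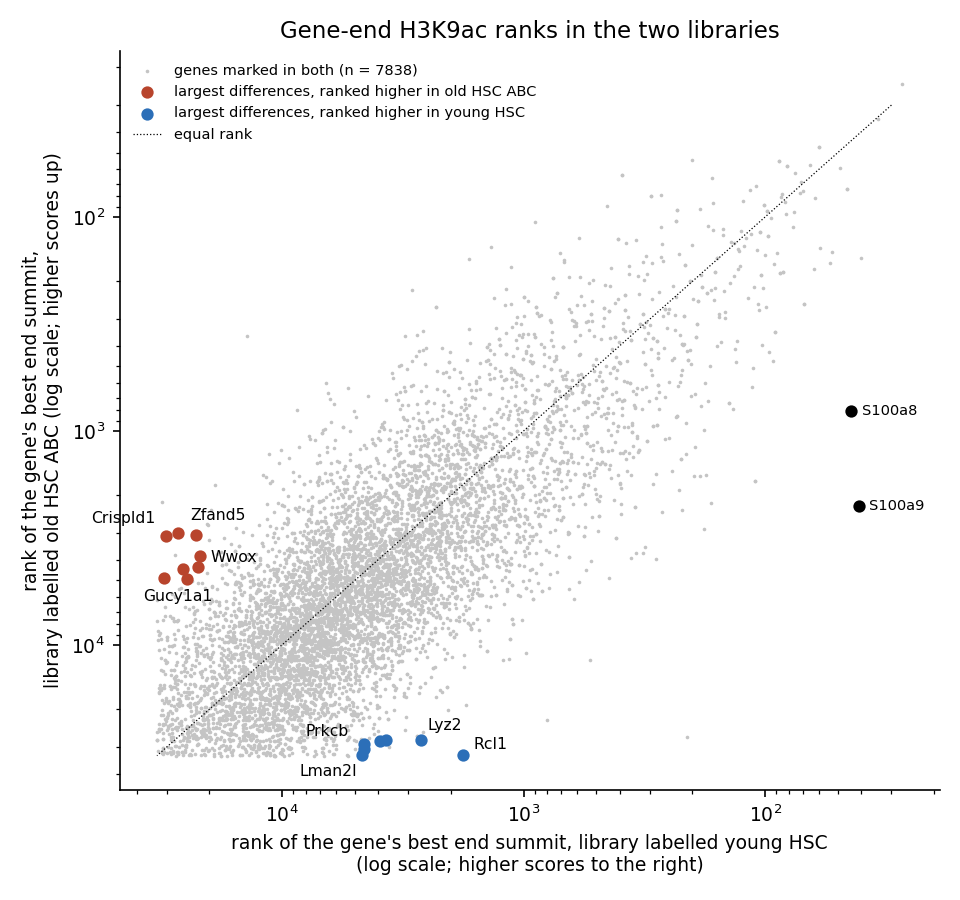
Rank of the best end summit of each of 7838 genes marked in both lists, in the young-labelled library (x axis) and the ABC-labelled library (y axis), both on log scales with high scores to the right and top; red and blue points are the 8 and 7 genes of the largest differences whose summits are each other's partners, and black points are S100a8 and S100a9. Most genes lie along the line of equal rank, and S100a8 (44 in young, 807 in ABC) and S100a9 (41 and 2253) lie far to its right. Of the 5 neutrophil granule genes marked in both lists, 3 ranked higher in ABC.

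Markers were looked up for the label HSC. Of 30 HSC transcription factors 15 were marked in ABC (50%) and 16 in young (53.3%), 12 of them in both. Over all genes the shares were 40.5% and 41.9%, and these counts do not settle the cell type. Runx1 ranked 4212 in ABC and 3680 in young, and Tal1 421 and 2603. Gata2 ranked 17749 and 12316, Meis1 11352 and 20256, and Myc 6600 and 6960. Hlf, Mecom, Lmo2, Erg and Fli1 had no end summit in either list. The nearest to Hlf was 2179 bp away in ABC and 2183 bp in young. Inside the records the deposited lists held 2 summits each at Hlf, and 10 ABC and 5 young ones at Mecom. In ABC alone stood Spi1 (26241), the master factor of myeloid cells, Nkx2-3 (29759) and Bcl11a (32917), all clear and all near the end of the list. In young alone stood Ikzf2 (6600), Hoxb5 (9146), Lyl1 (11573) and Myb (14135). Hoxb5 had an ABC summit 83 bp from the young one, and Lyl1 one at 1039 bp, so that Ikzf2 and Myb were the clear ones.

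Of 30 HSC surface and signalling genes 14 were marked in ABC (46.7%) and 18 in young (60%), beside 40.5% and 41.9% of all genes. All 14 ABC members were marked in both. Procr, the EPCR receptor used to sort HSCs, ranked 6279 in young and 27223 in ABC, and Cd34 4240 and 15980. Cd27 ranked 796 and 1032 and the cytokine receptor Csf2rb 2056 and 1150. The niche factor Angpt1 ranked 8153 in young and 2929 in ABC. Kit, the receptor of stem cell factor, was marked in young only, at 24585, with an ABC summit of rank 37675 at 1454 bp. Also in young only were Pdzk1ip1 (8357), Cd48 (9010) and Il3ra (18363), of which Il3ra alone was clear. Cd48 had an ABC summit of rank 567 at 584 bp. Slamf1, Flt3, Fgd5 and Esam were unmarked in both. The 14 shared members split 6 to 8 between ABC and young in which list ranked them higher.

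Markers of other cell types gave few clear differences in count, but the neutrophil genes S100a8 and S100a9 stood near the top of the young list. Of 20 neutrophil granule genes 9 were marked in ABC (45%) and 8 in young (40%), near the 40.5% and 41.9% of all genes. ABC-only members were 20% of the list and young-only ones 15%, beside 4.70% and 6.09% of all genes. Of the 5 marked in both, 3 ranked higher in ABC. The alarmin genes S100a8 and S100a9 ranked 44 and 41 in young and 807 and 2253 in ABC, and 13 and 17 in the old-labelled list. Ngp, a granule protein gene, ranked 1453 in young and 45 in the old-labelled list and had no end summit in the ABC list of equal length; its deposited ABC summit ranked 41864. Camp, an antimicrobial peptide gene, ranked 3204 in young and 137 in the old-labelled list, with no ABC summit within 6095 bp of the young one. Other genes of the list went the other way: Lrg1 (3828), Anxa1 (10683), Ltf (24456) and Chil3 (24535) were marked in ABC only, Ltf and Chil3 being clear. Lcn2 ranked alike, 4626 in young and 4386 in ABC. Elane, Ly6g, Cxcr2 and Retnlg had no end summit in either list, Elane being counted among the myeloid genes. The part of neutrophils or of their DNA in these ranks was not tested.

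Of 21 myeloid genes 12 were marked in ABC (57.1%) and 11 in young (52.4%), beside 40.5% and 41.9% of all genes. Of the 10 marked in both, 8 ranked higher in young, beside 4506 of 7838 (57.5%) over all genes. Cebpa ranked 2596 in young and 3937 in ABC, Cd14 1520 and 5857, Ctsg 7397 and 18949, and Mpo, the myeloperoxidase of early myeloid cells, 25092 and 29339. Ms4a3 was marked in ABC only, at 13762, with a young summit of rank 1161 at 936 bp. The megakaryocyte and platelet genes were marked 6 times of 18 in ABC (33.3%) and 4 times in young (22.2%), beside 40.5% and 41.9% of all genes. The ABC-only members were 11.1% of the list, beside 4.70% of all genes. Rab27b (6323), which acts in platelet granule release, and Tubb1 (30354), the platelet tubulin, were marked in ABC only and both clear. Vwf, Selp, Pf4 and Itga2b were unmarked in both. The deposited lists held summits inside the records of Vwf (6 in ABC, 5 in young) and Selp (3 and 2). Itgb3 ranked 7028 in ABC and 18143 in young.

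Of 23 T and NK cell genes 6 were marked in ABC (26.1%) and 2 in young (8.70%), beside 40.5% and 41.9% of all genes. Lat (11810), Prf1 (17330), Cd8b1 (25098) and Lck (31493) were marked in ABC only, 17.4% of the list beside 4.70% of all genes. All 4 were clear, as were 69.0% of all ABC-only genes. Cd3d (31770 in ABC, 14053 in young) and Nkg7 (4851 and 4251) were marked in both and ranked higher in young. Cd4, Cd8a, Cd3e and Gzmb were marked in neither. The B cell genes were marked 3 times of 18 in each list (16.7%), with Ms4a1 and Pax5 unmarked. Cd79b ranked 1850 in young and 3827 in ABC. Erythroid genes were marked 6 times of 20 in each (30%), with Klf1 (22363) in ABC only and Sptb (12784) in young only. All globin genes of the list were unmarked. Stroma and endothelium gave 8 (44.4%) and 7 (38.9%) of 18, near the shares of all genes. There Bglap (19350) and Col1a2 (29094) were clear in ABC and Runx2 (30383) in young. Of 26 genes of other tissues, 1 was marked in ABC and 2 in young: Sftpc in both and Cdh16 in young.

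Stress and cytokines switch on genes of the AP-1 and immediate early response within minutes. These genes were marked 17 times of 25 in young (68%) and 10 times in ABC (40%), beside 41.9% and 40.5% of all genes. All 10 ABC members were marked in young as well, and 7 (28.0%, beside 6.09% of all genes) were marked in young only. These were Ier3 (10151), the AP-1 subunit Fosl1 (11225), the mRNA decay factor Zfp36 (11659), the phosphatase gene Dusp2 (14127), Nr4a3 (15921), Klf4 (21561) and the AP-1 subunit Junb (24908). Only Ier3, Fosl1 and Junb were clear. Zfp36 and Dusp2 had an end summit in the part of the ABC list left out, Klf4 an ABC summit at 750 bp and Nr4a3 one of rank 5805 at 920 bp. Members marked in both did not lean the same way: Jun ranked 1291 in ABC and 2540 in young, Nr4a2 1026 and 6838, but Fos 27093 and 7435 and Atf3 27784 and 8157. Of the 10, 6 ranked higher in ABC.

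The NF-kB and inflammation genes were marked 22 times of 30 in young (73.3%) and 17 times in ABC (56.7%), beside 41.9% and 40.5% of all genes, again with every ABC member marked in young. In young only stood 5 (16.7%, beside 6.09% of all genes): Nfkbia, the inhibitor that holds NF-kB in the cytoplasm, at 4791, the adaptor Ticam1 (8704), Tnf (13778), the inflammasome sensor Nlrp3 (22918) and the adaptor Myd88 (23141). Ticam1, Nlrp3 and Myd88 were clear, and Nfkbia and Tnf had ABC summits of rank 37813 and 44161 within 500 bp. The kinase subunits Chuk (899 in ABC, 1034 in young) and Ikbkg (1042 and 1724) ranked alike, while Ikbkb ranked 977 in young and 10972 in ABC and Traf6 2080 and 10926. Interferon response genes were marked 27 times of 30 in each list (90%), beside 40.5% of all genes in ABC and 41.9% in young. Parp14 (651 in ABC, 714 in young) and Oasl2 (975 and 1909) stood high in both. Trim25, a ubiquitin ligase of the RIG-I pathway, ranked 361 in ABC and 13928 in young, and Ddx58, the gene of RIG-I, 28250 and 4923. The distances between the best summits of these genes are not given here. Irf1 was marked in ABC only, at 4623, but a young summit of rank 4790 lay 453 bp away. Ifi27l2a (11818) in ABC and Ifi209 (10989) in young were clear.

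Of 30 genes whose expression is known to change in aged HSCs, 12 were marked in ABC (40.0%) and 14 in young (46.7%). Over all genes the shares were 40.5% and 41.9%. Cavin2 (16392) and Osmr (30974) were marked in ABC only (6.67%, beside 4.70% of all genes) and both clear. The young-only members were 13.3% of the list, beside 6.09% of all genes. Ghr (14919), Mllt3 (17800), Junb and the transglutaminase gene Tgm2 (31048) were marked in young only, all but Ghr clear. Mt1, a metallothionein gene, ranked 3112 in young and 8900 in ABC and Cdc42, a small GTPase of cell polarity, 3725 and 14181. Alcam ranked 4994 in ABC and 8176 in young and Enpp5 4828 and 8984. Selp, Vwf, Clu and Aldh1a1 were unmarked in both lists.

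Sphingolipid genes were marked 23 times of 40 in ABC (57.5%) and 25 times in young (62.5%), beside 40.5% and 41.9% of all genes. ABC-only members were 10% of the list and young-only ones 15%, beside 4.70% and 6.09% of all genes. For synthesis, Sptlc2, a subunit of the first enzyme, ranked 890 in ABC and 1622 in young, and Cers4, a ceramide synthase, 3616 and 8334. Of the kinases that make sphingosine 1-phosphate, Sphk1 had no end summit in either list. Sphk2 ranked 1759 in young and 11205 in ABC at summits 3 bp apart, which lay within the Rpl18 record and cannot be assigned to 1 of the 2 genes. Sgpl1, the lyase that ends the pathway, ranked 1070 in young and 2750 in ABC. Among the receptors, S1pr2 ranked 4283 in young and 7442 in ABC and S1pr3 12782 and 4367. S1pr4 was marked in ABC only, at 6387, with a young summit of rank 1951 at 689 bp. Of the 4 ABC-only members Smpd3 (18745) and the acid ceramidase Asah1 (29207) were clear. Of the 6 young-only members, led by Sgms1 (10060), Sgms2 (17028) and Sgpp2 (23708), the exporter Mfsd2b (28289) alone was clear.

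Ferroptosis and iron genes, which govern death by lipid peroxidation, were marked 24 times of 40 in ABC (60%) and 25 times in young (62.5%). Over all genes the shares were 40.5% and 41.9%. ABC-only members were 7.5% of the list and young-only ones 10%, beside 4.70% and 6.09% of all genes. Gpx4, the enzyme that removes lipid peroxides, and Slc7a11, the cystine transporter, had no end summit in either list. Inside their records the deposited lists held 2 young summits and 1 ABC summit at Gpx4 and 3 and 1 at Slc7a11. Acsl4, which supplies the lipids that are oxidised, ranked 7780 in young and 8989 in ABC, and the transferrin receptor Tfrc 9330 and 12515. Both ferritin genes ranked higher in young: Ftl1 at 1433 against 6585, and Fth1 at 17338 with its ABC summit at 33410, in the part left out. Aco1 (558 in ABC, 1538 in young) and Vdac2 (881 and 1160) stood high in both. Trp53 (18058), Ptgs2 (18123) and the iron transporter Slc11a2 (21324) were marked in ABC only, with Ptgs2 and Slc11a2 clear. Hmox1 (10085), Lpcat3 (13858) and Aifm2 (14518) were marked in young only, all 3 clear.

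Histone acetylation genes were marked 24 times of 32 in each list (75%), beside 40.5% of all genes in ABC and 41.9% in young. Members in 1 list only were 9.38% of the list on each side, beside 4.70% of all genes in ABC and 6.09% in young. Hdac2 ranked 279 in ABC and 637 in young, Hdac3 1093 and 3622 and Acly, which makes acetyl-CoA, 1025 and 1386. Ep300 ranked 1088 in young and 2560 in ABC and Kat7 5199 and 21168. Hdac11 (9151), Kat2a (20399) and Brd3 (31773) were in ABC only, Hdac11 and Brd3 clear. Kat2b (12512), Sirt6 (19332), a deacetylase of H3K9ac, and Kat8 (29113) were in young only, Sirt6 and Kat8 clear.

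Cell cycle genes were marked almost alike, 23 of 26 in ABC (88.5%) and 22 in young (84.6%), beside 40.5% and 41.9% of all genes. Of the 22 marked in both, however, 20 (90.9%) ranked higher in young, beside 57.5% of the genes marked in both over all genes. Mcm5, a subunit of the replicative helicase, ranked 5325 in young and 33064 in ABC, Ccnb2 3264 and 14427, Top2a 3275 and 9988, Aurkb 953 and 4967 and Mki67 8195 and 13766. Ccnd3 (5232 in ABC, 10228 in young) and Cdk4 (3317 and 4773) ranked higher in ABC. Autophagy and lysosome genes leaned in the same direction, with 16 of 20 (80.0%) higher in young, among them Ctsd (267 in young, 2405 in ABC) and Lamp2 (2296 and 6509), while Ctsl ranked 608 in young and 313 in ABC. Lamp1 (14657) and Tfeb (17246), the master factor of lysosome genes, were in young only, with ABC summits of rank 38851 at 166 bp and of rank 33234 at 368 bp. Of the respiratory chain genes 27 of 30 were marked in ABC (90%) and 28 in young (93.3%), 15 of the 27 shared ones higher in ABC. Ndufb8 stood at 289 in ABC and 265 in young and Ndufc2 at 340 and 362.

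Glycolysis and hypoxia genes were marked 16 times of 27 in young (59.3%) and 12 times in ABC (44.4%), beside 41.9% and 40.5% of all genes. In young only stood 6 (22.2%, beside 6.09% of all genes): Egln3 (4908), a prolyl hydroxylase that senses oxygen, the glycolytic enzymes Pgk1 (8174) and Pkm (16379), Pdk1 (13756), Ldhb (20487) and Epas1 (31756), with Pgk1, Pkm and Ldhb clear. Slc2a1 (10406), the glucose transporter, and Hk2 (11887), the first kinase of the pathway, were in ABC only, each with a young summit within 500 bp. Eno1 ranked 622 in ABC and 3143 in young. Clock genes split to both sides, with 25% of the list in young only and 15% in ABC only, beside 6.09% and 4.70% of all genes. Csnk1e (15721), Nr1d1 (17899), Per1 (22837), Per2 (25169) and Arntl (32634), the gene of BMAL1, were in young only and all 5 were clear. Csnk1d (1363), Nr1d2 (21830) and Tef (25600) were in ABC only, with Nr1d2 and Tef clear.

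Ribosomal protein genes stood high in both lists, with Rpl4 at 74 in ABC and 46 in young and Rpl8 at 263 and 99. They were marked 24 times of 28 in ABC (85.7%) and 22 times in young (78.6%), beside 40.5% and 41.9% of all genes. Rpl13 (142), Rps2 (1442) and Rps19 (13624) were in ABC only, none of them clear. Rpl13 had a young summit of rank 453 at 1024 bp. The MHC class I genes were marked 17 times of 19 in each (89.5%), with B2m at 471 in ABC and 373 in young and Erap1 at 562 and 568. Of the p53 and senescence genes 15 of 25 were marked in ABC (60%) and 14 in young (56%). Sesn1 ranked 2077 in young and 15737 in ABC and Glb1, senescence-associated beta-galactosidase, 9091 and 3007. Cdkn1a and Cdkn2a, the genes of p21 and p16, had no end summit in either list.

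Over the 25 lists, which held 631 different genes, 44 genes were marked in ABC only (6.97%, beside 4.70% of all genes) and 64 in young only (10.1%, beside 6.09%). More young-only than ABC-only members were found in 12 lists, fewer in 8 and as many in 5. Of the 20 lists with a direction, 16 kept it with the lists as deposited, 3 became level and 1 turned. End summits within 2 kb kept 12, made 6 level and turned 2. With absence within 5 kb 10 kept it, 7 became level and 3 turned, and against the whole deposited list 10 kept it, 8 became level and 2 turned. When no summit of the other deposited list was allowed within 2 kb of the marking one, 13 kept it, 5 became level and 2 turned. Under all 5 settings 7 lists kept their direction: AP-1 and immediate early, NF-kB and inflammation, glycolysis and hypoxia, clock and HSC ageing genes on the young side, and T and NK cell and megakaryocyte and platelet genes on the ABC side. The rules on absence within 5 kb and on 2 kb around the marking summit could only remove genes. Under them a list with 0 genes on 1 side could not turn. This held for the AP-1, NF-kB, T and NK cell and megakaryocyte lists. HSC ageing genes kept their direction by 3 clear genes against 2, with Junb, also in the AP-1 list, among the 3. HSC transcription factors turned under all 5. The lists are described by these counts alone.

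**Figure D5:**
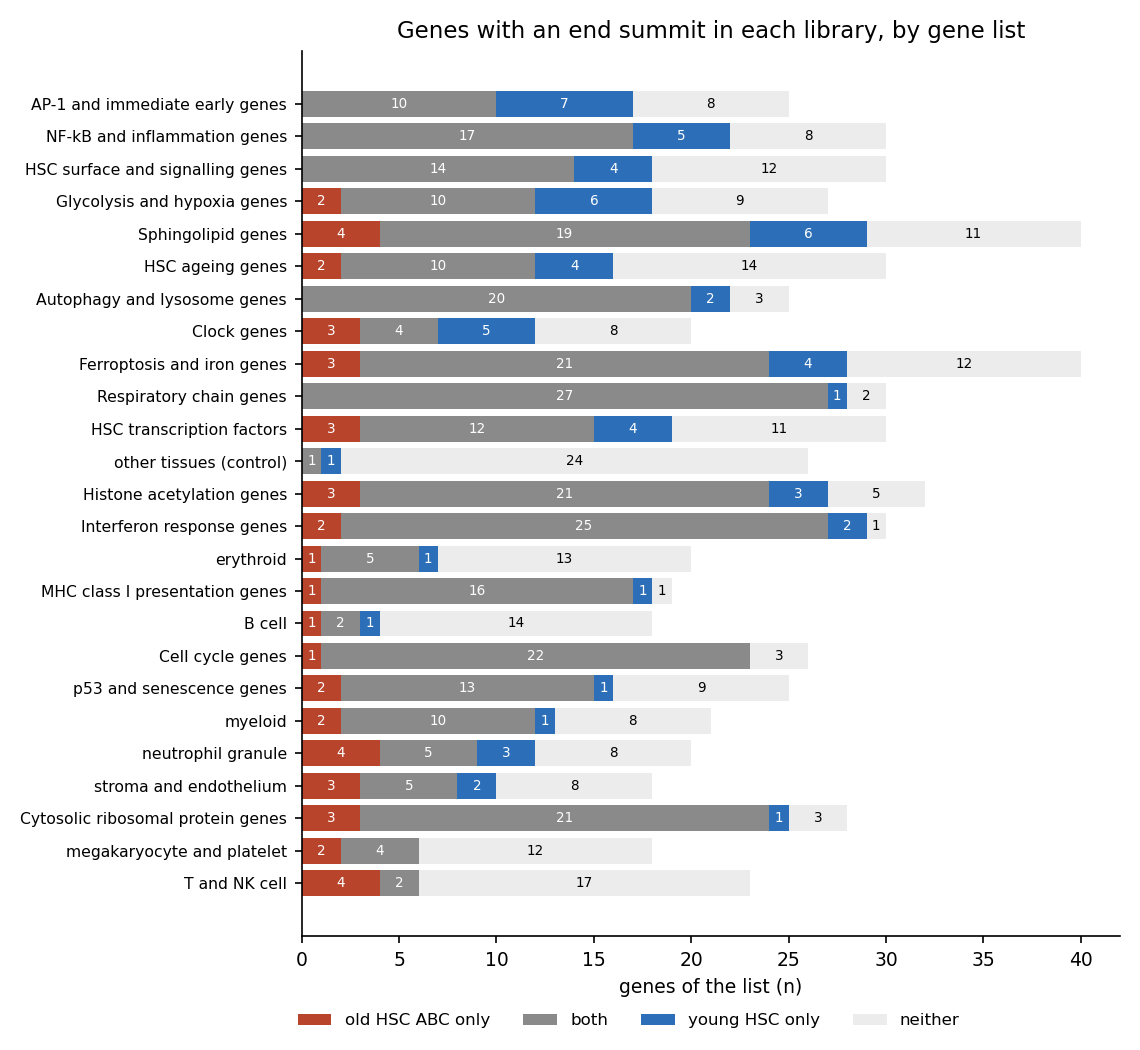
Number of genes (x axis) of each of 25 lists with an end summit in the ABC-labelled library only (red), in both (grey), in the young-labelled library only (blue) or in neither (pale), sorted by the difference between young only and ABC only. AP-1 and immediate early genes stand at the top with 7 young only and 0 ABC only, and T and NK cell genes at the bottom with 4 ABC only.

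At distal sites, summits were assigned to the nearest end of a protein-coding gene, which is a name for the place and no statement on its target. The highest ABC distal summits with no young summit within 2 kb were at chr4:153153100, 220 kb from Ajap1, at rank 28, then near Lrrc4c (48), 1500009L16Rik (65), Cd200 (71) and Dop1b (108). From there the rank fell to 1524 near Gata6, 1981 near Anxa3 and 2302 inside Neo1. In young they were at chr13:9011798, 15.7 kb from Gtpbp4, at rank 26, and near Epha7 (117), followed by Alkbh8 (2124), Il5 (2764), Fstl4 (3066), Nrf1 (3773), Igfbp7 (3833) and Gm40469 (4027). The nearest young summit to the Ajap1 one was 519 kb away, and the nearest ABC summit to the Epha7 one 636 kb. Others passed the 2 kb rule narrowly. The Lrrc4c one, at chr2:98665090, had a young summit 2052 bp away, and a shared summit at chr2:98667141 ranked 1 in both lists. The nearest ABC summit was 3053 bp from the Alkbh8 one and 3215 bp from the Gm40469 one. The Ajap1 and Epha7 summits had a summit of the old-labelled list within 1 bp, and so did the Gtpbp4 summit. Of the 16 summits, only those near Lrrc4c and Gm40469 had none of that list within 100 bp.

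The highest shared distal summits were in nearly the same order in both lists. The summit 1035.5 kb from Lrrc4c ranked 1 in both, and those inside Chl1 and near Cr2 ranked 2 and 4 in both. No filter for regions that collect reads in any experiment was applied, and what these summits stand for was not tested.

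Around HSC transcription factors lay 93 ABC and 82 young distal summits, of which 40.9% and 45.1% were shared, beside 40.1% and 41.9% of all distal summits. Erg had 14 in ABC and 12 in young, the best at ranks 3476 and 1096, Bcl11a 9 and 10, and Prdm16 7 and 6. Runx1 had 10 and 6, with 3 shared. Mycn had 4 in ABC, none of them shared, and 0 in young. Spi1 had 2 in each, both shared, with the best at rank 2751 in ABC and 273 in young. Ikzf2 had 3 in each, all shared, with the best at 46 and 67. Lmo2 had 3 in each, the best at 772 and 2010, although its gene ends were unmarked. Kit had 4 and 3 and Mecom 5 and 3, with 1 shared each.

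Distal summits were assigned to 6255 genes in ABC and 6087 in young, 4850 of them in both. ABC had more at 2971 genes and young at 2637, and 1884 had the same number. The largest excess in ABC was at Utrn, the gene of utrophin (16 against 7), and Gli2, a factor of Hedgehog signalling (16 against 8). The largest in young was at Sdk2 (13 against 2), Elmo1, which acts in cell migration (19 against 9), Rreb1 (17 against 8), Mgat5 (13 against 4) and Gadd45g (12 against 3). Mgat4a had 8 in young and 0 in ABC. At Elmo1 4 summits were shared and at Rreb1 7, so that the young excess lay in summits of 1 list. A gap of 5 or more was found at 58 genes in favour of ABC and at 36 in favour of young.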

How the data were processed

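H3K9ac CUT&Tag summits of the ABC-labelled old HSC library and the young-labelled HSC library were compared, with the old-labelled library used only to look summits up. The submitters' processing notes name mm10 as the build and list MACS2, BWA, Picard and edgeR; for the role and settings of each tool and the control used, the sources used here give nothing. The deposited column 5 was read as the authors' −log10 q-value, because each list starts just above 1.30. It depends on depth, which is unknown, so it served only to order and filter the summits of 1 list. Each list belonged to 1 sample and was taken as called per library.

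Groups follow the labels. The highest 33248 summits of each list were kept, 10 ABC summits being tied at the lowest score kept. Gene records were the 21887 protein-coding ones of RefSeq GRCm38.p6 on chromosomes 1 to 19, X and Y, and promoter sequences were matched for 17486 of them. The table gives no exons or UTRs, and a gene can be marked at opposite ends in the lists. Overlapping and neighbouring genes can share a summit. With 1 library per group there was no test; shares have exact 95% intervals for counting error. Computations used Python 3.11.15, pandas 2.3.3, numpy 2.4.6 and scipy 1.17.1, and were checked on simulated lists.

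Named genes were, per direction, the 10 best-ranked without a summit of the other deposited list within 5 kb or in the record, the 10 largest rank differences with a rank of 5000 or better, up to 3 members per side and 2 shared members of each of 25 gene lists, the 8 highest distal summits of 1 list, and 19 genes always given. Other list members named in the text, the genes of the distal counts and the choice of same-site promoters were picked after their values were seen. A few members of the gene lists are counted but not reported by name here. The comparison, members and lists were chosen with earlier results of these data known. Alternatives were lists as deposited, shorter lists, score limits, other distances, merged summits, gene starts only and chromosomes 1 to 19 and X. Added after seeing the data were the rules on summits of the other deposited list within 2 kb of the marking summit and within 5 kb of a gene end.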

Additional observations from a re-analysis of the deposited data

How the results depend on the processing

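No paired analysis was possible because each group had 1 library, and for the same reason no library could be left out. Shares are given for all, gene-end and distal summits in that order. With lists as deposited they were 43.5%, 73.7% and 32.1% in ABC and 59.0%, 78.5% and 49.3% in young; the ABC list was then longer. The top 20000 summits gave 59.1%, 81.2% and 41.9% in ABC and 59.1% of all and 45.6% of distal ones in young; the top 10000 gave 67.8%, 80.9% and 46.7% in ABC and 67.7%, 73.9% and 56.6% in young. A score of at least 5 gave 59.0%, 80.0% and 38.7% in ABC and 66.9%, 76.7% and 54.5% in young, and of at least 10, 72.6%, 79.7% and 55.0% in ABC and 66.5%, 68.8% and 62.6% in young. Sharing within 250 bp gave 44.8%, 66.7% and 34.0% in ABC and 44.8%, 64.0% and 35.4% in young, and within 1000 bp 58.5%, 87.4% and 43.6% in ABC and 58.5%, 84.0% and 45.3% in young. Gene ends within 500 bp gave 79.7% (ABC) and 77.7% (young) of gene-end summits shared, and within 2 kb 74.3% and 71.2%. Gene-end summits were shared more often than distal ones under every alternative run. Genes marked in 1 list were 501 in ABC and 659 in young with absence within 5 kb, 501 and 431 with absence within 5 kb of the other deposited list, 660 in ABC with gene starts only and 737 in young with no ABC summit within 2 kb of the marking summit. End summits within 2 kb raised the marked clock genes in young to 14, the myeloid genes to 17 in each list (from 12 in ABC and 11 in young) and the B cell genes to 6 in each list. The causes of these changes were not tested. Precision is limited by the single library per group and by unknown depth.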
